A study of Mus musculus with 8 samples.

Results

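The 4 genes Rpl3l, Rpl3, Eef1a2 and Eef1a1 form 2 pairs of paralogs in cytosolic translation, each with a form of striated muscle and a form used by most cells. They were taken by symbol from a deposited table of 54429 gene rows, and all 4 were found. They were chosen by their RPKM in these same libraries, from earlier results that showed them to differ between the groups. Their differences between the groups, and the ratios within each pair, are therefore given as a description with no test.

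RNA was sequenced from both ventricles of C57BL/6 mice at postnatal day 35. In all mice the genes for estrogen-related receptor alpha and gamma, which are transcription factors of energy metabolism, carried loxP sites. In 4 libraries, labelled AAV-Cre, an adeno-associated virus (AAV) given on postnatal day 0 to 1 carried Cre recombinase behind the promoter of cardiac troponin T, which drives Cre in cardiomyocytes. The virus of the 4 AAV-Luc libraries carried luciferase. The comparison asks how the targeting of both receptors in heart muscle after birth changes expression. Nothing in the labels ties a library to a single mouse, so p-values cover only how these libraries vary, and some of that may be technical. Library numbers are names only.

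Ribosomal protein L3 (uL3) is a core protein of the large subunit that reaches the peptidyl transferase centre, where amino acids are joined. Rpl3 encodes the form of most cells, and Rpl3l a form made almost only in heart and skeletal muscle. Elongation factor eEF1A carries charged tRNA to the ribosome as a complex with GTP, and is one of the most abundant proteins of a cell. Eef1a1 encodes the general form, and Eef1a2 the form of mature muscle and neurons. In mouse muscle, Eef1a2 takes over from Eef1a1 in the weeks after birth, and loss of Eef1a2 causes the wasted phenotype.

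As background, limma called 73.3% of 16385 genes different between the groups at an adjusted p of 0.05, with 64.4% higher in AAV-Cre and 8.87% lower. The median log2 difference of these genes was 0.41, a factor of 1.33. With each library centred on its median, 21.8% were higher and 24.1% lower. RPKM is the read number per kilobase of gene, scaled to the total of the library, and differences are of log2(RPKM + 0.5). Of the targeted genes, Esrrg stood at 218 ± 17.7 RPKM in AAV-Cre against 113 ± 5.51 RPKM in AAV-Luc, which goes against the label. Esrra stood at 39.1 ± 4.66 RPKM in AAV-Cre against 45.1 ± 3.66 RPKM in AAV-Luc (SD, n = 4 each; limma adjusted p = 0.0705). RPKM covers a whole gene, and the labels do not name the floxed exons, so every direction given here is one between libraries by their label. The steps between low RPKM values imply 48280000 to 61225000 reads per library. On that scale the scarcest value of the 4 genes, Rpl3l in AAV-Cre library 4, rests on about 1326 reads. Its counting error would be 2.75% if each read counted alone. The libraries were sequenced as pairs, so the error is likely larger. Some other genes below, such as Rpl3-ps2 and Rpl39l, have much lower values.

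The paralogs can be told apart by sequence. The coding sequences of Rpl3l and Rpl3 were identical at 73.7% of 1209 aligned bases, and those of Eef1a2 and Eef1a1 at 79.9% of 1386. Of the differing bases, 57.9% in the first pair and 80.9% in the second were at the third position of a codon, where a change often leaves the amino acid as it is. The first 60 coding bases are given from the reference transcripts (GENCODE M21), since they show how far a sequenced fragment can separate the forms. Capitals mark the bases that differ between the forms of a pair.
Rpl3l: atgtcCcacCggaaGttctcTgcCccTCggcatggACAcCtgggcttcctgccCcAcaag
Rpl3: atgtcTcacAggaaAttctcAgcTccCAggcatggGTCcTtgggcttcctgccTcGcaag
Eef1a2: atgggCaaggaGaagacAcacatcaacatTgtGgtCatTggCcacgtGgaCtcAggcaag
Eef1a1: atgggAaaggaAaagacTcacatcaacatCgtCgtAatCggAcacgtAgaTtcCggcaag
In this stretch the L3 forms differed at 13 bases and the eEF1A forms at 11. Over the longest coding transcripts, with their untranslated ends, the longest run of bases found in both forms at any position was also read. It was 22 bases in the first pair and 23 bases in the second.

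Rpl3l, the muscle form of L3, lies on chromosome 17 from 24727820 to 24736143 of mm10 (plus strand, 10 exons). It measured 31.4, 21.8, 24.2 and 16.2 RPKM in AAV-Cre libraries 1 to 4, against 92.6, 95.1, 77.2 and 105.6 RPKM in AAV-Luc libraries 1 to 4. Every AAV-Cre value lay under every AAV-Luc value. Among the genes tested, 66.1% showed no overlap between the groups, and 7.67% lay wholly lower in AAV-Cre. The means were 23.4 ± 6.27 RPKM in AAV-Cre and 92.6 ± 11.7 RPKM in AAV-Luc (SD, n = 4 each), so the AAV-Luc mean was 3.96 times that of AAV-Cre. The log2 difference of -1.99 was the 16th lowest of the 16385. As a share of its mean the spread among AAV-Cre libraries was 26.8%, the widest of the 4 genes, against 12.6% among AAV-Luc libraries. In bulk ventricle, fewer cardiomyocytes and less RNA per cardiomyocyte cannot be told apart.

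Rpl3, the general form, lies on chromosome 15 from 80077791 to 80091868 (minus strand, 10 exons in the longest coding transcript). It measured 239, 267, 227 and 312 RPKM in AAV-Cre libraries 1 to 4, against 80.4, 85.7, 80.7 and 78.2 RPKM in AAV-Luc libraries 1 to 4. The AAV-Luc libraries were close together, with a spread of 3.92% of their mean, and every AAV-Cre library lay above them, as for 58.4% of the genes tested. The mean was 261 ± 37.7 RPKM in AAV-Cre, 3.22 times the 81.2 ± 3.18 RPKM of AAV-Luc, and the log2 difference was 1.67. In AAV-Luc libraries Rpl3l and Rpl3 thus stood at about the same RPKM, which depends on gene lengths that are not known here. In AAV-Cre libraries Rpl3 ranked 291st of all rows by mean RPKM and Rpl3l 3642nd, whereas in AAV-Luc libraries Rpl3 ranked 884th and Rpl3l 771st.

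Eef1a2, the elongation factor of mature muscle and neurons, lies on chromosome 2 from 181147653 to 181157014 (minus strand, 8 exons). It measured 214, 204, 232 and 153 RPKM in AAV-Cre libraries 1 to 4, against 258, 286, 235 and 254 RPKM in AAV-Luc libraries 1 to 4. The groups did not overlap, but AAV-Cre library 3 (231.7 RPKM) lay only just under AAV-Luc library 3 (234.8 RPKM). The means were 200.7 ± 33.7 RPKM in AAV-Cre and 258 ± 21.2 RPKM in AAV-Luc, a log2 difference of -0.38. It was -0.25 without AAV-Cre library 4, the lowest, and -0.78 with each library centred on its median. Of the genes tested, 7.19% had a lower difference. Eef1a2 and Rpl3l thus stood on the same side of the shift of all genes, but the difference of Eef1a2 was the smaller as deposited and after centring, where that of Rpl3l was -2.40.

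Eef1a1, the general form, lies on chromosome 9 from 78478449 to 78489151 (minus strand, 8 exons in the longest coding transcript). It measured 1190.1, 1390.3, 1242 and 1548 RPKM in AAV-Cre libraries 1 to 4, against 363, 344, 337 and 375 RPKM in AAV-Luc libraries 1 to 4. The groups lay far apart. The mean was 1343 ± 161 RPKM in AAV-Cre, 3.79 times the 355 ± 17.1 RPKM of AAV-Luc, with a log2 difference of 1.91. By mean RPKM Eef1a1 ranked 60th of all rows in AAV-Cre and 191st in AAV-Luc. Only 1.44% of genes tested had a higher difference than Eef1a1, and 2.11% a higher one than Rpl3.

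**Figure D1:**
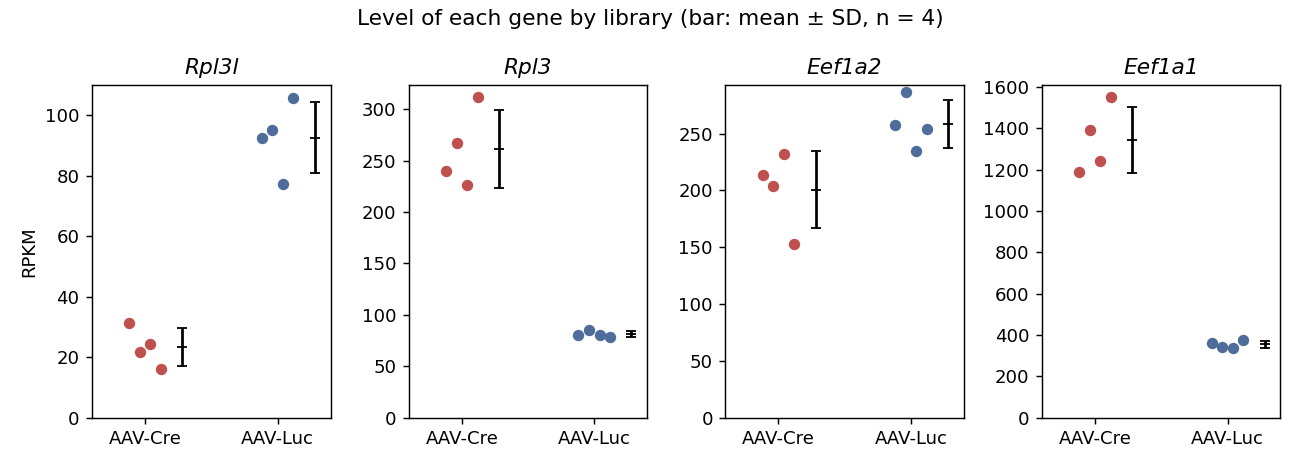
RPKM of the 4 genes in each library (points; AAV-Cre left, AAV-Luc right; the vertical axis starts at 0 in each panel), with the mean ± SD of 4 libraries beside them. The muscle forms lie lower and the general forms higher in AAV-Cre, without overlap, and the gap is narrowest for Eef1a2.

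The ratio within a pair compares both genes in the same library, so it does not depend on how that library was scaled. The ratio of Rpl3l to Rpl3 was 0.131, 0.0817, 0.107 and 0.0521 in AAV-Cre libraries 1 to 4, against 1.15, 1.11, 0.957 and 1.35 in AAV-Luc libraries 1 to 4. The ratio of Eef1a2 to Eef1a1 was 0.18, 0.147, 0.187 and 0.0989 in AAV-Cre libraries 1 to 4, against 0.711, 0.832, 0.696 and 0.678 in AAV-Luc libraries 1 to 4. In both pairs the highest AAV-Cre ratio lay far under the lowest AAV-Luc ratio. The mean log2 ratio of Rpl3l to Rpl3 was -3.51 ± 0.58 in AAV-Cre and 0.18 ± 0.20 in AAV-Luc, a difference of -3.69 (SE 0.31) or 12.9-fold. That of Eef1a2 to Eef1a1 was -2.75 ± 0.42 in AAV-Cre and -0.46 ± 0.13 in AAV-Luc, a difference of -2.29 (SE 0.22) or 4.89-fold. The general forms had like log2 differences, 1.67 for Rpl3 and 1.91 for Eef1a1. The gap between the pairs came from the muscle forms, at -1.99 for Rpl3l and -0.38 for Eef1a2.

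**Figure D2:**
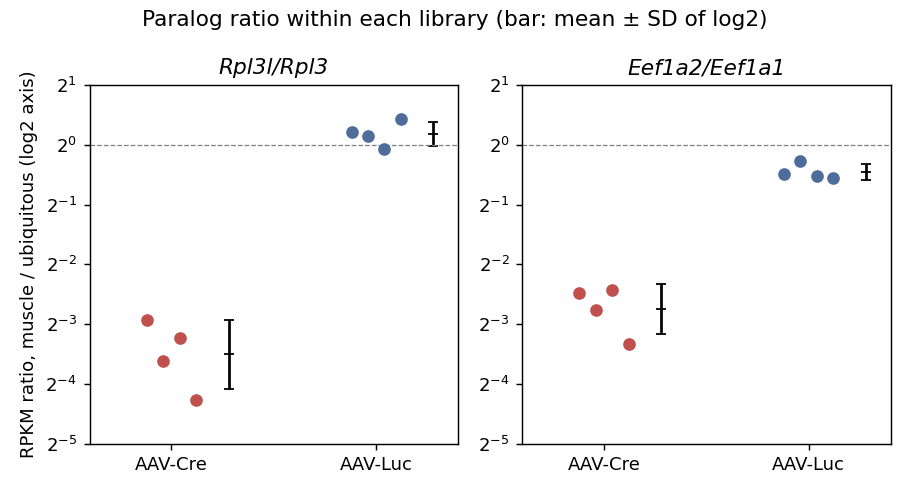
RPKM ratio of the muscle to the general form within each library on a log2 axis (AAV-Cre left, AAV-Luc right), with the mean ± SD of the log2 ratio (n = 4) and a dashed line at equal levels. AAV-Luc ratios of Rpl3l to Rpl3 run from 0.957 to 1.35, and AAV-Cre ratios from 0.0521 to 0.131.

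Written as a share of the summed RPKM of its pair, Rpl3l made up 8.44% ± 2.85 in AAV-Cre and 53.1% ± 3.52 in AAV-Luc (SD, n = 4 each). Eef1a2 made up 13.2% ± 3.07 of its pair in AAV-Cre and 42.1% ± 2.26 in AAV-Luc. Summed levels were not constant either. Rpl3l and Rpl3 together measured 285 ± 32.9 RPKM in AAV-Cre and 174 ± 11.5 RPKM in AAV-Luc, a ratio of 1.64. Eef1a2 and Eef1a1 together measured 1543 ± 132 RPKM in AAV-Cre and 613 ± 27.4 RPKM in AAV-Luc, a ratio of 2.52. Both sums were above the factor of 1.33 at the median of all genes. The ratio of the L3 sum was under the median of 78 other ribosomal protein genes, a log2 difference of 0.83.

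Across the pairs, Eef1a1 stood at 4.96 to 5.48 times Rpl3 in AAV-Cre libraries and 4.01 to 4.79 times in AAV-Luc libraries, so the groups did not overlap. The mean ratio was 5.16 ± 0.24 for AAV-Cre and 4.37 ± 0.35 for AAV-Luc. The ratio of Eef1a2 to Rpl3l was 8.79 ± 1.32 in AAV-Cre and 2.81 ± 0.29 in AAV-Luc, a wider gap than between the general forms. AAV-Cre library 4 was the highest of its group for Rpl3 and Eef1a1 and the lowest for Rpl3l and Eef1a2. That library also had the highest summed RPKM of 10 fibroblast markers, at 2836, against 1803, 2330 and 1743 in AAV-Cre libraries 1, 2 and 3. The part of this in its values was not tested.

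Because the muscle forms belong to cardiomyocytes and the general forms to most cells, markers of cell types were read beside them. Over all genes tested, 64.4% were higher and 8.87% lower as deposited, and 21.8% and 24.1% after centring. All 12 cardiomyocyte markers were present, 4 of them higher and 5 lower in AAV-Cre as deposited and none higher and 8 lower after centring. Their summed RPKM was 26163 to 29968 in AAV-Cre and 31391 to 36268 in AAV-Luc. All 10 fibroblast markers were higher as deposited (9 after centring), with sums of 1743 to 2836 RPKM in AAV-Cre and 739 to 892 in AAV-Luc. Of 10 macrophage markers 9 were higher under both scalings, with sums of 348 to 457 RPKM in AAV-Cre and 177 to 191 in AAV-Luc. Of 10 endothelial markers 3 were higher and none lower, or 1 and 6 after centring, with sums of 517 to 608 RPKM in AAV-Cre and 390 to 540 in AAV-Luc. Neurons, which also use Eef1a2, left little trace, since 8 of 10 neuron markers were under 1 RPKM in every library and all 10 summed to 4.78 to 5.68 RPKM in AAV-Cre and 3.37 to 4.03 in AAV-Luc. Of 8 skeletal muscle markers 5 were under 1 RPKM in every library, among them the myosin genes Myh1, Myh2 and Myh4, and all 8 summed to 13.6 to 27.5 RPKM in AAV-Cre and 2.61 to 4.38 in AAV-Luc. The 4 atrial markers summed to 90.3 to 226 RPKM in AAV-Cre and 8.29 to 53.2 in AAV-Luc. The part of the cell makeup in the ratios was not tested.

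Set against the mean log2 level of the 12 cardiomyocyte markers in the same library, which was lower in AAV-Cre by -0.21, Rpl3l still differed by -1.78 and Rpl3 and Eef1a1 by 1.88 and 2.12. For these 3 genes the groups did not overlap. Eef1a2 came to -2.65 ± 0.21 in AAV-Cre and -2.49 ± 0.05 in AAV-Luc on this scale, a difference of -0.17, and the groups overlapped. Without AAV-Cre library 4 its difference was -0.06. The markers themselves differed in direction. Cardiac troponin T (Tnnt2), the highest by its difference, measured 5373 ± 427 RPKM in AAV-Cre and 3647 ± 385 RPKM in AAV-Luc. The ventricular myosin light chain Myl2, the lowest, measured 1885 ± 88.4 RPKM in AAV-Cre and 4298 ± 485 RPKM in AAV-Luc. Rpl3l differed by -2.55 against Tnnt2 alone and by -0.81 against Myl2 alone. Rpl3 differed by 1.11 against Tnnt2 and 2.85 against Myl2, and Eef1a1 by 1.35 and 3.10. Eef1a2 differed by -0.94 against Tnnt2 and by 0.81 against Myl2, so its direction depended on the marker.

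Among other genes of cytosolic translation, nearly all ribosomal proteins were called higher in AAV-Cre, beside 64.4% of all genes tested. The shares of modifiers and growth regulators were close to that background. No listed gene had as high a difference as Rpl3 or Eef1a1. Of 46 further proteins of the large ribosomal subunit 45 were higher and none lower, with a median log2 difference of 0.80. After centring, 38 were higher and 1 lower. Rpl10, a late-joining protein of the large subunit, measured 402 ± 56.1 RPKM in AAV-Cre and 165 ± 8.77 RPKM in AAV-Luc (log2 difference 1.27), and Rpl12 and Rpl39 followed at 1.24 and 1.17. All 32 proteins of the small subunit were higher (25 after centring), and their median was 0.87. Rps20, Rps21 and Rps12 had the largest differences, at 1.21, 1.17 and 1.15. None of the 78 ribosomal protein genes was lower as deposited and the highest stood at 1.27, so that Rpl3 at 1.67 lay above and Rpl3l below all of them. Reads of ribosomal protein genes can be shared with their many pseudogenes, so these levels are uncertain.

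No other tested paralog of a ribosomal protein had a difference as low as that of Rpl3l. Of 7 listed, 5 passed the filter of at least 1 RPKM in at least 4 libraries. As deposited 4 of these were higher and none lower, beside 64.4% and 8.87% of all genes tested. After centring none was higher and 1 lower, beside 21.8% and 24.1%. Rpl36al, Rpl22l1, Rps27l and Rpl7l1 had log2 differences of 0.61, 0.57, 0.56 and 0.38. Rps4l did not pass as deposited, at 8.88 ± 1.49 RPKM in AAV-Cre and 10.3 ± 1.66 RPKM in AAV-Luc (limma adjusted p = 0.21), and was the one lower after centring (-0.61). Rpl39l stayed under 1 RPKM in every library, and Rpl10l was listed at 0 in all 8.

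The counts of the next 3 lists stand beside 64.4% of all genes tested higher and 8.87% lower as deposited, and 21.8% and 24.1% after centring. Among 14 tested genes of elongation and termination, 12 were higher and none lower (6 and 2 after centring), and the median was 0.52. Eef1b2, a subunit of the factor that reloads eEF1A with GTP, measured 66.2 ± 7.2 RPKM in AAV-Cre and 36.4 ± 2.67 RPKM in AAV-Luc (log2 difference 0.85). The release factor genes Etf1 and Gspt1 had log2 differences of 0.91 and 0.71. No gene of this list reached the 1.91 of Eef1a1. Of 14 tested genes that modify eEF1A or L3 or assemble the large subunit, 9 were higher and none lower, or 3 and 3 after centring. Bop1, a factor of large subunit assembly, stood out at 20 ± 1.03 RPKM in AAV-Cre and 6.26 ± 0.56 RPKM in AAV-Luc (log2 difference 1.60, limma adjusted p = 4.78e-07). Eef1akmt1, a methyltransferase of eEF1A, and Ftsj3, an assembly factor, had log2 differences of 0.73 and 0.60. Of 19 regulators of growth and of messenger RNAs of ribosomal proteins, 13 were higher and none lower (2 and 6 after centring), and the median was 0.28. Tial1, Tsc1 and Larp1 led at 0.59, 0.58 and 0.57.

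**Figure D3:**
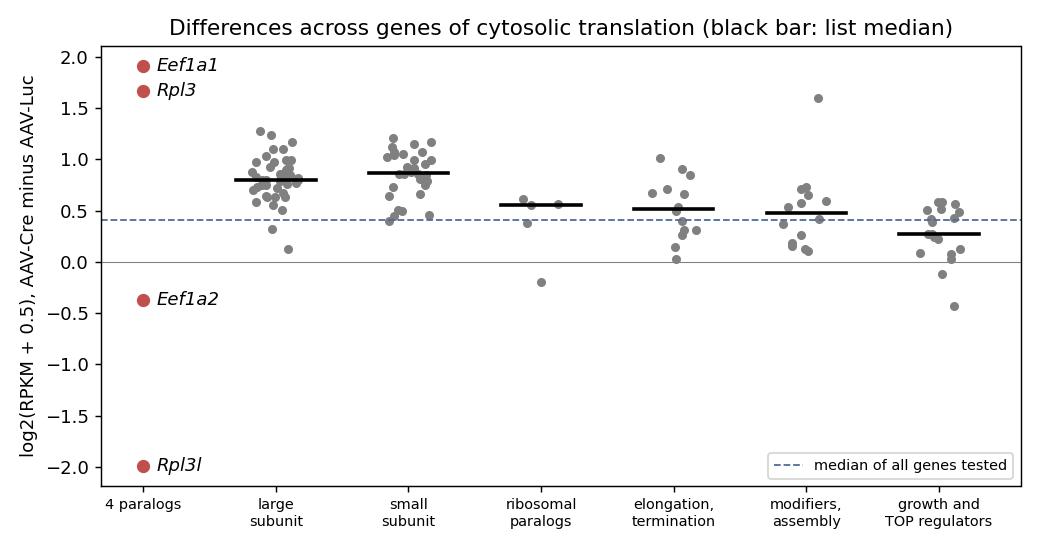
Differences of log2(RPKM + 0.5), AAV-Cre minus AAV-Luc, for the 4 paralogs (red) and for the tested genes of 6 lists of translation genes (grey; black bars are list medians; the dashed line is the median of all genes tested, 0.41). Eef1a1 and Rpl3 lie above the ribosomal proteins, whose highest value is 1.27, and Rpl3l lies below every listed gene.

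Muscle or heart forms of other genes gave a scale for the 2 translation pairs. Of 17 further pairs of a muscle or heart form and another form, 14 had both genes tested. Their log2 ratio ran from -1.84 to 0.64 between AAV-Cre and AAV-Luc, with a median of -0.85, against -3.69 and -2.29 for the translation pairs. In 12 of the 14 the AAV-Cre ratios lay wholly under the AAV-Luc ratios, in 1 wholly above, and in 1 the groups overlapped. Among single genes tested 66.1% showed no overlap, and no such share was worked out for ratios. The nearest were lactate dehydrogenase Ldhb to Ldha (-1.84), carnitine palmitoyltransferase Cpt1b to Cpt1a (-1.67) and acetyl-CoA carboxylase Acacb to Acaca (-1.49). At the other end were the adenine nucleotide carriers Slc25a4 to Slc25a5 (-0.16, overlapping) and phosphoglycerate mutase Pgam2 to Pgam1 (0.64). As deposited, 64.4% of all genes were called higher and 8.87% lower. The muscle or heart form, named first here, was lower and the other form higher in 5 of the 14. These were Ckm and Ckb, Pygm and Pygb, Cpt1b and Cpt1a, Acacb and Acaca, and Ldhb and Ldha. In the last of these Ldhb is the heart form. After centring, where 21.8% of all genes were higher and 24.1% lower, this held in 2, Acacb and Acaca and Ldhb and Ldha. In the respiratory pair Cox7a1 and Cox7a2 both forms were lower, at log2 differences of -1.76 and -0.96.

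**Figure D4:**
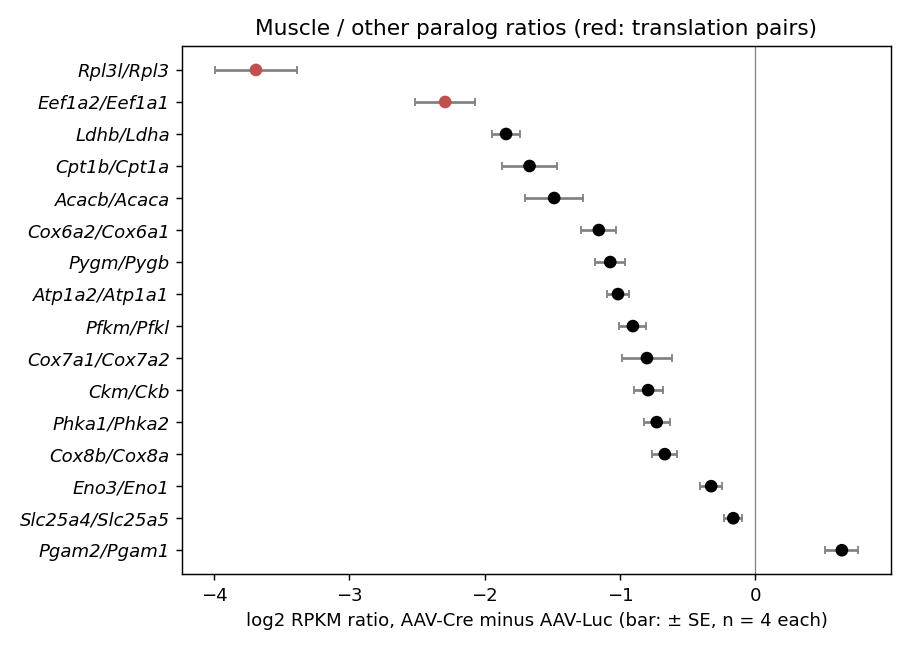
Difference of the log2 RPKM ratio, AAV-Cre minus AAV-Luc, for 16 pairs of a muscle or heart form to another form (points, with the SE from 4 libraries in each group; translation pairs in red). The translation pairs lie at -3.69 and -2.29, and the other 14 between -1.84 and 0.64.

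The genes whose values over the 8 libraries were most like each member were found among 7919 genes whose mean was 5 RPKM or more. Symbols of unnamed genes and pseudogenes, such as those with Gm, Rik, LOC or -ps, were left out first. Pseudogene copies of the members were therefore not candidates. Likeness was the root mean square difference of log2(RPKM + 0.5) after each gene was centred on its own mean, so it mostly reads the size of the group difference. Rpl3l was nearest to Mtfp1, a mitochondrial fission gene (0.08), Ndrg4 (0.09), Fndc5 (0.16) and the triglyceride synthesis gene Dgat2 (0.16). Rpl3 was nearest to the collagen-modifying enzyme Plod2 (0.05), Sulf1 (0.07), Tspo (0.09) and Cd63 (0.10). Eef1a2 was nearest to Ldhd (0.06), Rtn2 (0.07) and Mrpl2 (0.08), and Eef1a1 to Perp (0.08), Nme3 (0.11), Prkar1a (0.11) and Tceal8 (0.12). Rpl3 and Eef1a1 ranked high for each other, with Rpl3 13th for Eef1a1 and Eef1a1 29th for Rpl3 (0.15). Rpl3l ranked 7531st for Eef1a2, and Eef1a2 611th for Rpl3l (0.82).

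The general forms have many near copies in the genome and the muscle forms have none that passed the same limits. Among annotated transcripts, 21 processed pseudogenes matched the coding sequence of Rpl3 and 13 that of Eef1a1 at 90% identity or more over at least 80% of its length. The closest, Rpl3-ps1 on chromosome X, matched Rpl3 at 99.8% and measured 22.1 RPKM in AAV-Cre and 7.06 RPKM in AAV-Luc (log2 difference 1.58). Its ratio to Rpl3 stayed between 0.0801 and 0.0923 in all 8 libraries, and that of Rpl3-ps2 between 0.00801 and 0.0167. Whether these rows hold reads of Rpl3 was not tested. All 3 tested copies of Rpl3 and all 5 of Eef1a1 were higher in AAV-Cre, beside 64.4% of all genes tested. Gm13456, a copy of Eef1a1, measured 84.5 RPKM in AAV-Cre and 21.3 RPKM in AAV-Luc (log2 difference 1.97). Together the copies in the table came to 11.5 to 13.1% of the RPKM of Rpl3 in AAV-Cre and 11.0 to 13.8% in AAV-Luc. For Eef1a1 they came to 7.62 to 8.35% in AAV-Cre and 7.03 to 9.98% in AAV-Luc.

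The windows from 250 bases before to 50 after the RefSeq starts (GRCm38.p6, the assembly of mm10) were read for AAGGTCA, the core letters bound by estrogen-related receptors, on both strands. They are shown for the muscle forms, the genes with lower values in AAV-Cre, with AAGGTCA in capitals. Rpl3l has starts at 2 places and Eef1a2 at 1.
Rpl3l, chr17:24727576-24727875, plus strand: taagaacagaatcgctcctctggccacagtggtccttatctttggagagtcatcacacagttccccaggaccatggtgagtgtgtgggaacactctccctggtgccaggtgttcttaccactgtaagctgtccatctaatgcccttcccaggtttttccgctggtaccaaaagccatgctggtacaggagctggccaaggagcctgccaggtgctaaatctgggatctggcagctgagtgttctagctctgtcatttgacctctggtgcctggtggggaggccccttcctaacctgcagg
Rpl3l, chr17:24732435-24732734, plus strand: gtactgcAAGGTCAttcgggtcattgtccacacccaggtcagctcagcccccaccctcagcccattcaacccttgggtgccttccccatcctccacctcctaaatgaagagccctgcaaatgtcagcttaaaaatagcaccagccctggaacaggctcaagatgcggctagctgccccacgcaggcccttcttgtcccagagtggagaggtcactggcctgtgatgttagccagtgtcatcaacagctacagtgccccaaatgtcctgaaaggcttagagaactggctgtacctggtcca
Eef1a2, chr2:181156966-181157265, minus strand: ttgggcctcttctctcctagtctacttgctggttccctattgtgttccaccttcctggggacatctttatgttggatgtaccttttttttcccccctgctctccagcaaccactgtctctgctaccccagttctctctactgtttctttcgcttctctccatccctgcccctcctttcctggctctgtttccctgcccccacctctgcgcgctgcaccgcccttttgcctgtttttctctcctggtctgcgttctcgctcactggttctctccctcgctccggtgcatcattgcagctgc
The letters were not in the first Rpl3l window, in that of Eef1a2, or in that of Eef1a1 on chromosome 9 from 78481675 to 78481974. They stood once in the second Rpl3l window, 243 bases before a start inside the gene, at 24732442 to 24732448 within coding exon 4 of the 10. The longer form TNAAGGTCA was in none of these windows. AAGGTCA was in 4.72% and TNAAGGTCA in 1.28% of 32817 such windows. No window of Rpl3 was used here. The GC content was 54.7% and 55.7% in the windows of Rpl3l, 55.0% in that of Eef1a2 and 66.7% in that of Eef1a1.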

How the data were processed

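Poly(A)-enriched RNA of 8 libraries was sequenced as pairs, and the authors deposited RPKM values per gene and library with group averages. The build was mm10, and the tools named were Partek 6.6, STAR, edgeR and FastQC 0.11, per the submitters' processing notes, which give no role for each. For their order, the annotation, the gene lengths and strand, nothing is given in the sources used here. Column names show only a group, so each column was a replicate of its group. Libraries were made with TruSeq and NEBNext kits, per the labels' protocols, with no record of which library had which. Depth was read from the steps of RPKM in genes with 1 annotated transcript, where 99.7 to 99.9% of low values were within 0.1 of a whole number of steps. Those totals appear to count single reads, since 71.7 to 77.8% of the multiples were even. Intervals of counting cover counting error only. No count model was fitted, because RPKM are not counts and the lengths used are unknown.

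The test was limma 3.58.1 (R 4.3.3) on log2(RPKM + 0.5), for genes that reached 1 RPKM in 4 or more libraries, with a variance that follows the mean, and Benjamini-Hochberg adjustment over 16385 genes at a threshold of 0.05. The script was tested on simulated data. The words higher and lower for list genes refer to this test. Positions and transcripts came from GENCODE M21 and promoter windows from RefSeq. Near copies were found with blastn 2.17.0, and coding sequences were aligned with biopython 1.88. Identity is of coding bases, since no protein sequences were used here. The text names the members, the genes of the other pairs, up to 3 called genes of each list without overlap and averaging 5 RPKM or more, all ribosomal paralogs, and the 4 nearest patterns of each member, apart from items that are not reported here. Members and lists were chosen with earlier results of these data known.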

Additional observations from a re-analysis of the deposited data

Results flagged for a closer look

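Among 64 groups of 4 libraries checked for a library far from the rest, 1 stood out, which is fewer than the about 1 in 20 that chance gives. Eef1akmt1, a methyltransferase of eEF1A, measured 20.5, 21.9, 22.0 and 22.2 RPKM in AAV-Cre libraries 1 to 4, against 11.7, 14.5, 12.9 and 12.5 RPKM in AAV-Luc libraries 1 to 4. The gap between AAV-Cre library 1 and the next was 0.871 of the range of its group, a narrow range that stayed far above AAV-Luc.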

How the results depend on the processing

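The ratios within pairs and the directions of the 4 log2 differences held under every alternative tried for them. Under the alternatives 293 values stayed close, 36 moved and 1 reversed. Close was a loose measure. With no filter, a change from 13 to 10 growth regulators higher and from 10559 to 12011 genes higher still counted as close. By that measure other pseudocounts, no filter, and leaving out mitochondrial and haemoglobin genes moved none. Scaling moved most of the rest. With centring, the log2 differences were -2.40 for Rpl3l, 1.26 for Rpl3, -0.78 for Eef1a2 and 1.50 for Eef1a1, and with quantile normalization -2.33 for Rpl3l and 1.43 for Rpl3. Set against Tnnt2 alone in place of 12 cardiomyocyte markers, they were -2.55 for Rpl3l, 1.11 for Rpl3, -0.94 for Eef1a2 and 1.35 for Eef1a1, and against Myl2 alone, added after seeing the data, -0.81, 2.85, 0.81 (reversed) and 3.10 in the same order. Of all genes, 3578 were higher and 3949 lower in AAV-Cre with centring, 3810 and 3838 with quantile normalization, and 6607 higher with a mean of at least 5 RPKM, against 10559 and 1454 as deposited. With centring and with quantile normalization, higher and lower counts were 0 and 1, then 1 and 1, for ribosomal paralogs, 6 and 2, then 7 and 2, for elongation, 3 and 3 under both for modifiers and assembly, and 2 and 6 under both for growth regulators, and with centring 1 large subunit gene was lower.

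Leaving out each library in turn gave 9909 to 10374 genes higher and 1306 to 1571 lower, and 0 to 1 growth regulators lower (1 without AAV-Cre library 4). It gave -3.88 to -3.44 for the log2 ratio of Rpl3l to Rpl3, -2.40 to -2.10 for that of Eef1a2 to Eef1a1, and -0.45 to -0.25 for Eef1a2. Set against cardiomyocyte markers, Eef1a2 ranged from -0.22 to -0.06. No paired analysis was possible because the columns carry no replicate number of a sample. The labels tie no column to a batch, so batches were not tested. Depth limits mostly genes near or under 1 RPKM.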

Other observations

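The nearest protein-coding genes of Rpl3l on chromosome 17, named for their position, went different ways. Msrb1, a methionine sulfoxide reductase that lies 499 bases away, measured 118 ± 4.51 RPKM in AAV-Cre and 51.8 ± 5.13 RPKM in AAV-Luc (log2 difference 1.19). Ndufb10, a subunit of respiratory complex I at 3342 bases, measured 237 ± 28 RPKM in AAV-Cre and 501 ± 55.7 RPKM in AAV-Luc (log2 difference -1.08). Rps2, a protein of the small ribosomal subunit at 5891 bases, measured 471 ± 21.7 RPKM in AAV-Cre and 359 ± 34.3 RPKM in AAV-Luc (log2 difference 0.39), which is near the median of all genes at 0.41, and after centring it did not pass (-0.01, limma adjusted p = 0.89). As deposited all 3 passed, as did 73.3% of the genes tested.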
